A study of Mus musculus with 6 samples.

Results

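The immunity-related GTPases (IRG proteins) are a family of GTPases that mouse cells make in response to interferons. The family was followed here through 9 genes, Irgm1, Irgm2, Igtp, Iigp1, Gm4951, Tgtp1, Tgtp2, Ifi47 and F830016B08Rik, which were chosen by symbol from the 54752 genes of the count tables. All 9 were found, each with a single Ensembl identifier, and all 9 were among the 18617 genes that passed the filter on low counts. Gm4951 and F830016B08Rik passed it through the BCAS group, in which they were high, and such an entry favours a difference between the groups. The RNA came from the whole right hippocampus of wild-type (WT) C57BL/6 male mice of 14 weeks, whose strain the methods give as C57BL/6 J. There were 3 mice after a sham operation and 3 after bilateral carotid artery stenosis (BCAS), with 1 library per mouse. In BCAS mice a microcoil was placed around each common carotid artery, the narrower coil on the right side, which lowers blood flow to the brain. Sham mice had the same surgery without coils, and tissue was taken 3 weeks later. The BCAS mice are those that survived the operation, and the tissue holds all cell types of the hippocampus. The comparison asks which transcripts of the hippocampus changed under chronic hypoperfusion. The libraries held 29652456 to 35607098 counts. A count of 3 or fewer, equal to 0.0874 to 0.0994 CPM (counts scaled to a common library total) in these libraries, was taken as the limit of detection. The libraries stand apart in carryover of choroid plexus, whose 4 marker genes (Ttr, Folr1, Kl and Clic6) summed to 982, 4064 and 69.5 CPM in sham mice 1 to 3 and to 5893, 39.7 and 3193 CPM in BCAS mice 1 to 3. The 6 markers of the hippocampus were present, among them Prox1 at 96.9 ± 20.1 CPM (SD, n = 3) in sham mice, and Fibcd1 and Neurod6 were down-regulated in BCAS mice (log2 fold changes -1.91 and -1.56).

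IRG proteins fall into 2 types. The Irgm-type members (Irgm1, Irgm2 and Igtp, also known as Irgm3) carry a methionine in place of a lysine in the nucleotide-binding loop, sit on the cell's own membranes and hold the effector members in the inactive state there. The effector members load onto the vacuoles of intracellular parasites and bacteria and break them open, for which they need GTP and proteins of the autophagy conjugation system. Iigp1 (Irga6), Tgtp1 and Tgtp2 (Irgb6) and Ifi47 (Irgd) are effectors. Gm4951 (Ifgga2) and F830016B08Rik (Ifgga4) are less studied members that were placed with the effectors here. Most of these genes are driven by interferon-gamma and by type I interferons, through the DNA elements known as GAS and ISRE in their promoters.

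Promoter sequences were available from RefSeq (GRCm38.p6, 250 bases before to 50 after each start) for 6 of the 9 members, all on chromosome 11, and Iigp1, Gm4951 and F830016B08Rik did not match. They are shown because 5 of these 6 genes rose together in BCAS mice. The 120 bases before each start are printed 5′ to 3′ on the strand of the gene, with matches to the ISRE (GAAA, any 2 bases, GAAA) or the GAS element (TTCNNNGAA) in capitals. Both strands of the whole window were searched, and overlapping matches were kept.
Irgm1 (chr11:48871421-48871540, minus strand): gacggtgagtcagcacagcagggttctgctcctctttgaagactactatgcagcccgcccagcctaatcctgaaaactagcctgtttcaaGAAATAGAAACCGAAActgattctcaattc
Irgm2 (chr11:58214857-58214976, plus strand): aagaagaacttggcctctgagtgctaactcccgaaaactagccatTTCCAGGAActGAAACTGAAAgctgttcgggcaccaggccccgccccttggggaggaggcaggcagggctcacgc
Igtp (chr11:58199436-58199555, plus strand): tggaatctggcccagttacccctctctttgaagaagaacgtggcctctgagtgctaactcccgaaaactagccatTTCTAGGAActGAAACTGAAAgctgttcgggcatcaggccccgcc
Tgtp1 (chr11:48992247-48992366, minus strand): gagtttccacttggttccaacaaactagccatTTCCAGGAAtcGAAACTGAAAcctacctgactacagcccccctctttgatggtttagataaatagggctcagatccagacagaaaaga
Tgtp2 (chr11:49064213-49064332, minus strand): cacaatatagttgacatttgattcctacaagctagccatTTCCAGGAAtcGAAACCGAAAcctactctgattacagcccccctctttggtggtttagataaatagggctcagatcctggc
Ifi47 (chr11:49076467-49076586, plus strand): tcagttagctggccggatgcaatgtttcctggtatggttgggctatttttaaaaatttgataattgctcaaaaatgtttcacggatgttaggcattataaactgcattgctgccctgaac
In Irgm2, Igtp, Tgtp1 and Tgtp2 the GAS match was followed after 2 bases by an ISRE match. The pair began 75 bases before the start in Irgm2, 45 in Igtp, 88 in Tgtp1 and 81 in Tgtp2. Irgm1 held 2 ISRE matches that overlap each other, the first beginning 30 bases before the start, and no GAS match. The window of Ifi47 held neither string of letters. Over all 32851 RefSeq windows of 300 bases, an ISRE match was present in 3.44%, a GAS match in 8.30% and both in 0.454%. The pair at the spacing seen in these genes, a GAS match, any 2 bases and an ISRE match, on either strand, was present in 5 windows (0.0152%). Of these, 4 were the windows of Irgm2, Igtp, Tgtp1 and Tgtp2, and the other was that of Gm12185, another IRG gene of chromosome 11 (Irgb2b1). Gm12185 lies on the minus strand like Tgtp1 and ends at 48992226, inside the Tgtp1 window (48992197 to 48992496). Its window may thus hold the same stretch of DNA as that of Tgtp1, which was not tested. The pair of GAS and ISRE matches was written down after the matches of the members had been seen. The genes are copies of each other, and a match is a description of letters, not of binding.

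In the build mm10 of the files, Irgm1 (ENSMUSG00000046879.7), Tgtp1 (ENSMUSG00000078922.9), Tgtp2 (ENSMUSG00000078921.3) and Ifi47 (ENSMUSG00000078920.3) lie on chromosome 11 between 48861968 and 49096974. Igtp (ENSMUSG00000078853.8) and Irgm2 (ENSMUSG00000069874.7) form a separate pair on chromosome 11 between 58199556 and 58222782. Gm4951 (ENSMUSG00000073555.1), F830016B08Rik (ENSMUSG00000090942.1) and Iigp1 (ENSMUSG00000054072.11) lie on chromosome 18 between 60212080 and 60392627. All Irgm-type members are thus on chromosome 11, and type and chromosome are partly the same division.

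In the hippocampus of BCAS mice, 8 of the 9 IRG genes were up-regulated DEGs, meaning an adjusted P under 0.05 with edgeR's quasi-likelihood test and an absolute log2 fold change above 1, and no member was down-regulated. Among all tested genes 8.47% were up-regulated and 0.999% down-regulated DEGs by the same rule. The same 8 genes passed an adjusted P of 0.05 alone, which 18% of all tested genes did upward and 13.2% downward. The exception was Tgtp1. Log2 fold changes ran from 1.26 for Tgtp1 to 4.41 for F830016B08Rik with a median of 2.08, beside a median of 0.018 over all tested genes. Gm4951 and F830016B08Rik are among the 8 called genes and passed the filter through the BCAS group. The largest log2 fold change of the other members was 2.43, for Iigp1. In 8 members every BCAS mouse lay above every sham mouse, as in 25.3% of all tested genes. The summed CPM of the 9 genes was 29.3, 28.1 and 25.8 in sham mice 1 to 3 and 102, 105 and 151 in BCAS mice 1 to 3, a ratio of the group means of 4.32. In bulk tissue, more cells of a type and more RNA per cell cannot be told apart. The summed microglia markers rose as well (6.09-fold).

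**Figure D1:**
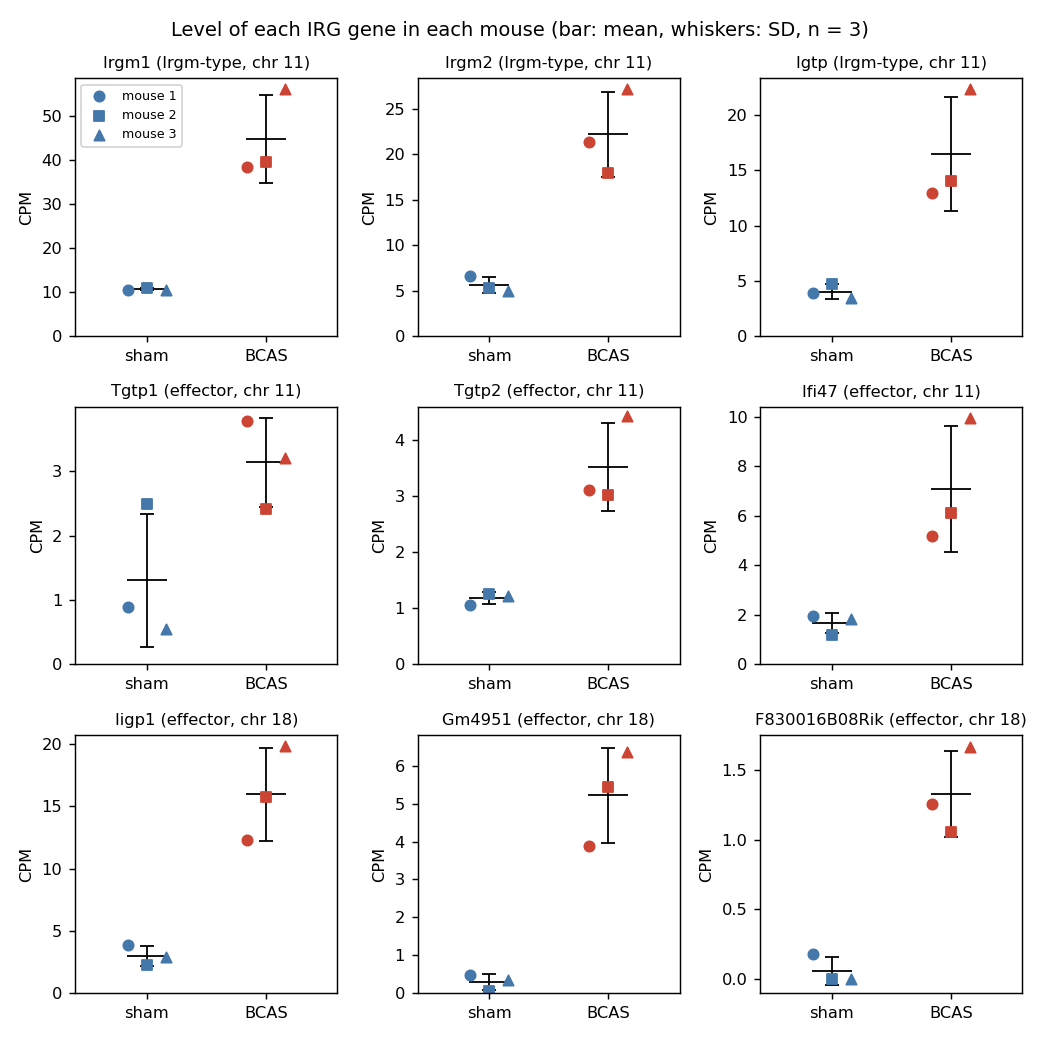
CPM (y axis, linear) of the 9 IRG genes in each of 3 sham and 3 BCAS mice, with symbols for mouse 1, 2 and 3, the group mean as a bar and the SD as whiskers. The groups are apart in 8 panels, and in that of Tgtp1 sham mouse 2 (2.48 CPM) lies above BCAS mouse 2 (2.42 CPM).

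The 3 Irgm-type genes rose by nearly the same factor. Irgm1, which protects the cell's own membranes and is needed for resistance to several intracellular bacteria, had 10.4, 10.9 and 10.5 CPM in sham mice and 38.5, 39.5 and 56.3 CPM in BCAS mice. The sham values were close together and BCAS mouse 3 was the highest of all. Its log2 fold change was 2.08 ± 0.15 (SE), with an adjusted P of 3.74e-05 by edgeR. Irgm2, a regulator found at the Golgi, had 6.58, 5.29 and 4.98 CPM in sham mice and 21.4, 17.99 and 27.3 CPM in BCAS mice, which is 1.98 ± 0.18 (SE) as a log2 ratio with an adjusted P of 0.000107 by edgeR. The lowest BCAS mouse was well above the highest sham mouse. Igtp, a regulator of the endoplasmic reticulum and lipid droplets, had 3.89, 4.73 and 3.47 CPM in sham mice and 13.0, 14.0 and 22.4 CPM in BCAS mice. Its log2 fold change was 2.03 ± 0.23 (SE), with an adjusted P of 0.000323 by edgeR. The spread between BCAS mice was larger than in sham mice for each of the 3 genes, with BCAS mouse 3 on top. Igtp and Irgm2 share 162 exonic bases on the same strand, which is 8.01% of the exonic length of Igtp and 4.39% of that of Irgm2, and reads on this stretch were given to neither gene.

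The effectors of chromosome 11 changed less evenly. Ifi47 rose from 1.98, 1.20 and 1.84 CPM in sham mice to 5.20, 6.09 and 9.96 CPM in BCAS mice, which is 2.08 ± 0.30 (SE) as a log2 ratio with an adjusted P of 0.00124 by edgeR. Tgtp2 had 1.06, 1.26 and 1.22 CPM in sham mice and 3.11, 3.01 and 4.42 CPM in BCAS mice, which is 1.57 ± 0.25 (SE) as a log2 ratio with an adjusted P of 0.00209 by edgeR. Neither gene overlapped between the groups, and the call of Tgtp2 was lost with glmTreat against a log2 fold change of 1 (adjusted P = 0.119). Tgtp1, the near-identical copy of Tgtp2, had 0.885, 2.48 and 0.554 CPM in sham mice and 3.78, 2.42 and 3.20 CPM in BCAS mice. Here the groups overlapped, because sham mouse 2 was slightly above the lowest BCAS mouse. The log2 fold change of Tgtp1 was 1.26 ± 0.49 (SE), with an adjusted P of 0.0802 by edgeR, so no difference was called. Over the alternatives of the analysis its adjusted P ran from 0.00580 to 1. Without sham mouse 2 the log2 fold change was 2.12 (edgeR adjusted P = 0.00580). No other run with a mouse left out called Tgtp1, and without sham mouse 3 its log2 fold change was 0.89 (edgeR adjusted P = 0.200).

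The choroid plexus signal varied between the same mice. In sham mice Tgtp1 was lowest in mouse 3, then mouse 1, then mouse 2, as were the choroid markers (69.5, 982 and 4064 CPM). In BCAS mice the order from low to high was mouse 2, mouse 3 and mouse 1 for both Tgtp1 and the choroid markers (39.7, 3193 and 5893 CPM). With the choroid plexus score as a covariate, an alternative chosen after seeing the data, Tgtp1 passed as a DEG with the log2 fold change still at 1.26 (edgeR adjusted P = 0.0259). It was also called without that term by DESeq2 (adjusted P = 0.0323), by limma-voom (0.0331) and with no filter beyond 1 count (0.0147). None of the 4 choroid markers was itself a DEG, and their sums overlapped between the groups. The order of 3 mice per group was noticed in the data, and the part of choroid plexus in the overlap of Tgtp1 was not tested.

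The copies Tgtp1 and Tgtp2 were measured on the small part of their sequence that differs. Their longest transcripts in GENCODE M21 were 99.8% identical over 2810 aligned bases. Of all windows of 150 bases, the length of a read, 74.1% of those of Tgtp1 occurred without any mismatch in a transcript of another gene (Tgtp2 or Gm12185), and 71.7% of those of Tgtp2 occurred in Tgtp1. Reads that align to several places were not counted, so the levels of both genes are understated. Which copy the reads left out came from is unknown, and the counted reads were assigned by few differing bases. The windows stand for single reads, whereas the libraries were sequenced in pairs, so the shares of reads left out may differ. Tgtp1 also shares 223 exonic bases (6.96%) with Gm12185, and Ifi47 shares 111 with Olfr56 and 106 with Gm12188. With a single transcript taken per member, no window of Irgm1, Iigp1, Gm4951, Ifi47 or F830016B08Rik occurred in another gene. Of the windows of Igtp 0.854% occurred in a transcript of Irgm2, other than the one of Irgm2 that was taken, in which no shared window was found.

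**Figure D2:**
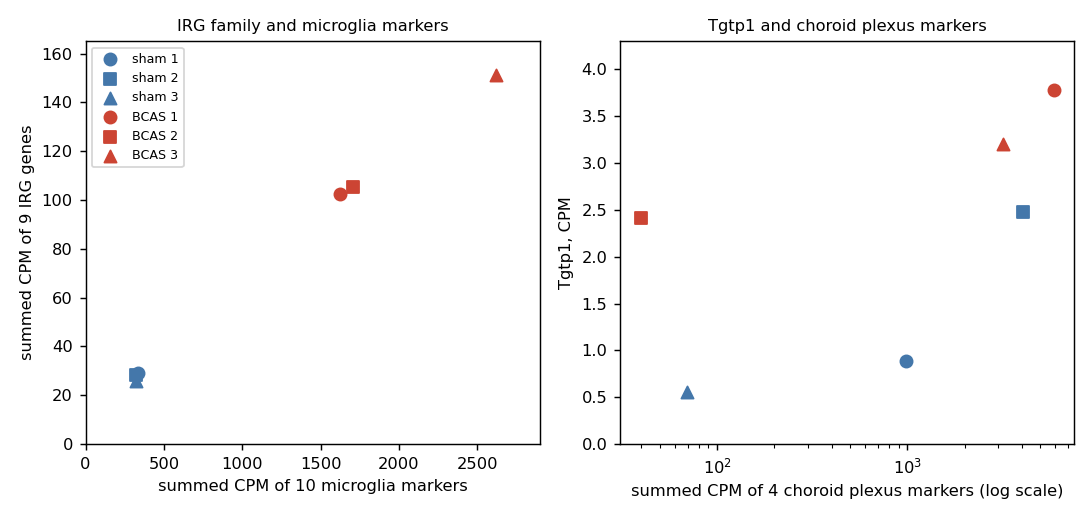
Left, summed CPM of the 9 IRG genes (y axis) against that of 10 microglia markers (x axis) in each mouse, with sham mice at 320 to 335 CPM of markers and BCAS mice at 1624 to 2622 CPM. Right, CPM of Tgtp1 (y axis) against the summed CPM of 4 choroid plexus markers (x axis, log scale), in which Tgtp1 rises with the markers within each group of 3.

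The chromosome 18 genes had the highest fold changes among the members, and Gm4951 and F830016B08Rik had the lowest sham levels. Iigp1, the best studied effector, had 3.83, 2.21 and 2.86 CPM in sham mice and 12.3, 15.8 and 19.8 CPM in BCAS mice, which is 2.43 ± 0.24 (SE) as a log2 ratio with an adjusted P of 0.000155 by edgeR. The groups were far apart and the BCAS values spread more widely. Gm4951 was counted 16, 2 and 12 times in sham mice and 126, 164 and 199 times in BCAS mice. This corresponds to 0.472, 0.0598 and 0.350 CPM against 3.87, 5.43 and 6.37 CPM, and sham mouse 2 was under the limit of detection. The log2 fold change was 4.13 ± 0.49 (SE), with an adjusted P of 0.000389 by edgeR, and the summed counts of 489 against 30 gave a 17.6-fold ratio (exact 95% binomial interval 12.2 to 26.4). F830016B08Rik was counted 6, 0 and 0 times in sham mice and 41, 32 and 52 times in BCAS mice, or 1.26, 1.06 and 1.67 CPM in BCAS mice. Its log2 fold change was 4.41 ± 0.83 (SE), with an adjusted P of 0.00464 by edgeR. The ratio of 125 to 6 summed counts was 22.5-fold with a wide interval of 10.1 to 62.6. Both mates of a fragment were counted, so the counts are not independent and these intervals are too narrow even for counting error. The intervals also pool the counts of all mice of a group and hold no variation between mice, so they are not intervals for the group ratio. All sham counts of F830016B08Rik came from mouse 1, and without that mouse the fitted log2 fold change was 8.43, a value set by the absence of counts.

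**Figure D3:**
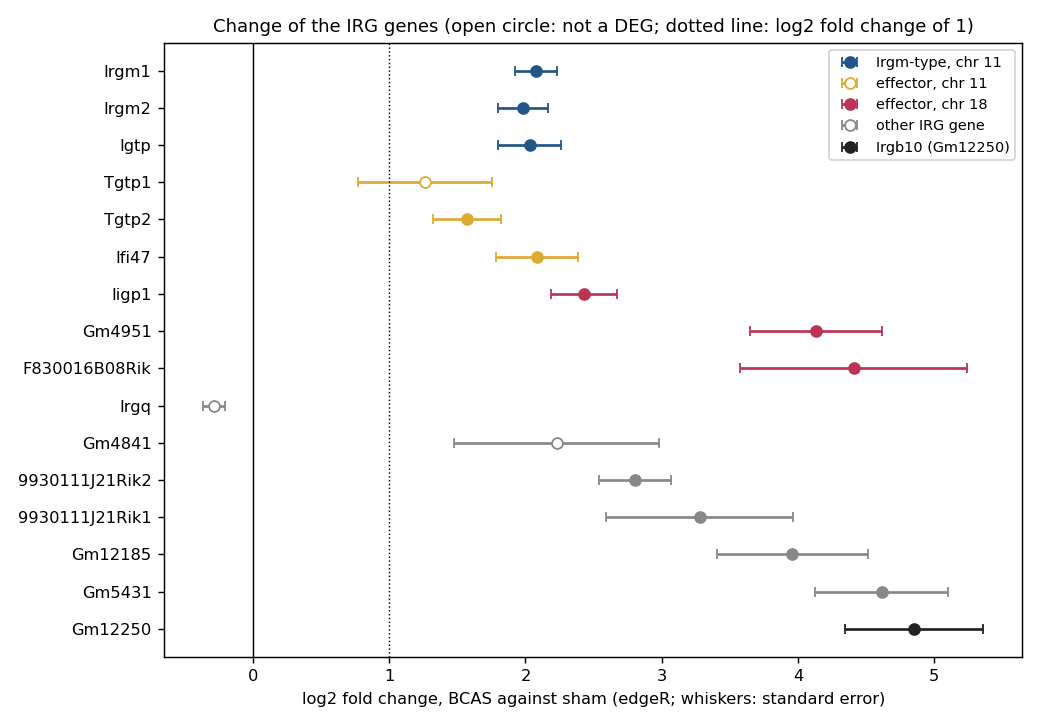
Log2 fold change of BCAS against sham (x axis) with its standard error for the 9 members, 6 other tested IRG genes and Gm12250, colored by type and chromosome, with open circles for genes that were not DEGs. The 3 Irgm-type genes lie between 1.98 and 2.08, while the effectors run from 1.26 to 4.41.

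The fold changes of the Irgm-type and effector members are given side by side, without a test. The median log2 fold change was 2.03 over the 3 Irgm-type genes (range 1.98 to 2.08) and 2.25 over the 6 effectors (range 1.26 to 4.41). The upper end of the effector range is that of Gm4951 and F830016B08Rik, which passed the filter through the BCAS group, and the other 4 effectors run from 1.26 to 2.43. The mean log2 CPM of the Irgm-type genes minus that of the effectors was 2.68, 3.35 and 3.05 in sham mice and 2.46, 2.41 and 2.53 in BCAS mice. The groups did not overlap, and the difference of the group means was -0.56 (SD 0.33 in sham and 0.061 in BCAS mice, n = 3 each). This difference rested on the low genes Gm4951 and F830016B08Rik. The difference was -0.86 with a prior count of 0.5, -0.31 with a prior count of 5 and -0.10 with medians in place of means. When only members with at least 1 CPM in both groups were used, which removes Gm4951 and F830016B08Rik, the difference was 0.15. In summed CPM the Irgm-type genes rose 4.12-fold and the effectors 4.85-fold. The effector sum includes Gm4951 (mean of 0.294 CPM in sham and 5.23 in BCAS mice) and F830016B08Rik (0.0590 and 1.33). The ratio of the sums thus has the same limit as the score and is no separate support. No P value is given for these scores, because the members were chosen with results of these data known.

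Among the members, those of chromosome 18 rose by the larger factors. The median log2 fold change was 2.01 over the 6 members on chromosome 11, of which 5 were DEGs, and 4.13 over the 3 on chromosome 18, all DEGs. The mean log2 CPM of the chromosome 11 members minus that of the chromosome 18 members was 1.87, 3.66 and 2.61 in sham mice and 1.23, 0.94 and 1.12 in BCAS mice. The difference of the means was -1.62 (SD 0.90 in sham and 0.15 in BCAS mice). Of the 3 genes of chromosome 18, Gm4951 and F830016B08Rik entered the test through their BCAS counts, so these medians and scores are descriptions and support no difference between the chromosomes. Among effectors alone the same score was 0.71, 2.65 and 1.45 in sham mice and 0.00, -0.35 and -0.20 in BCAS mice, a difference of -1.79 (SD 0.98 and 0.17). Sham mouse 2, with 2 counts of Gm4951 and none of F830016B08Rik, held the highest value of each of these scores. With only members of at least 1 CPM in both groups, Iigp1 alone stands for chromosome 18, and the differences were -0.58 and -0.75. Of IRG genes outside the members, those of chromosome 11 had log2 fold changes of 4.85 (Gm12250), 4.61 (Gm5431), 3.96 (Gm12185), 3.28 (9930111J21Rik1) and 2.80 (9930111J21Rik2). On chromosome 18 Gm4841 had 2.23, which was not called. Large factors in genes that were low in sham mice were thus found on both chromosomes.

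The order of the genes by level per length was much the same in both groups. In sham mice Igtp (1.99 ± 0.317 CPM per kb of exon, SD, n = 3) and Irgm1 (1.83 ± 0.0430) were highest and overlapped, followed by Irgm2 (1.52 ± 0.229), Iigp1 (0.951 ± 0.261) and Ifi47 (0.675 ± 0.168). Irgm2 was apart from Irgm1 and Iigp1, its neighbours in this order, but overlapped with Igtp, and Iigp1 and Ifi47 overlapped. Tgtp1 (0.408 ± 0.322), Tgtp2 (0.402 ± 0.0355), Gm4951 (0.111 ± 0.0800) and F830016B08Rik (0.0179 ± 0.0310) came last, with Tgtp2 and Gm4951 apart and the others overlapping. In BCAS mice Igtp (8.14 ± 2.55 CPM per kb), Irgm1 (7.70 ± 1.72), Irgm2 (6.02 ± 1.27), Iigp1 (5.12 ± 1.20) and Ifi47 (2.86 ± 1.02) kept these ranks, each overlapping with the next. Gm4951 (1.98 ± 0.477) moved above Tgtp2 (1.20 ± 0.268) and Tgtp1 (0.978 ± 0.214), overlapping with Tgtp2, the next in the order. The levels of Tgtp1 and Tgtp2 lack the reads that both copies share, so their ranks against the other genes are uncertain in both groups. F830016B08Rik (0.403 ± 0.0935) remained the lowest, apart from Tgtp1. As a share of the summed level per kb, the chromosome 18 genes took 17.4%, 9.08% and 14.4% in sham mice and 20.0%, 24.5% and 21.1% in BCAS mice. Gm4951 and F830016B08Rik, which passed the filter through the BCAS group, are part of this sum, so the shares are descriptions. The share of Iigp1 alone was 8.79% to 14.6% in sham and 13.6% to 16.7% in BCAS mice, with overlap. The Irgm-type genes took 67.6% ± 2.28 (SD, n = 3) in sham and 63.5% ± 1.84 in BCAS mice. The chromosome 11 effectors took 18.8% ± 1.94 and 14.6% ± 0.523, a share that is understated through Tgtp1 and Tgtp2.

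**Figure D4:**
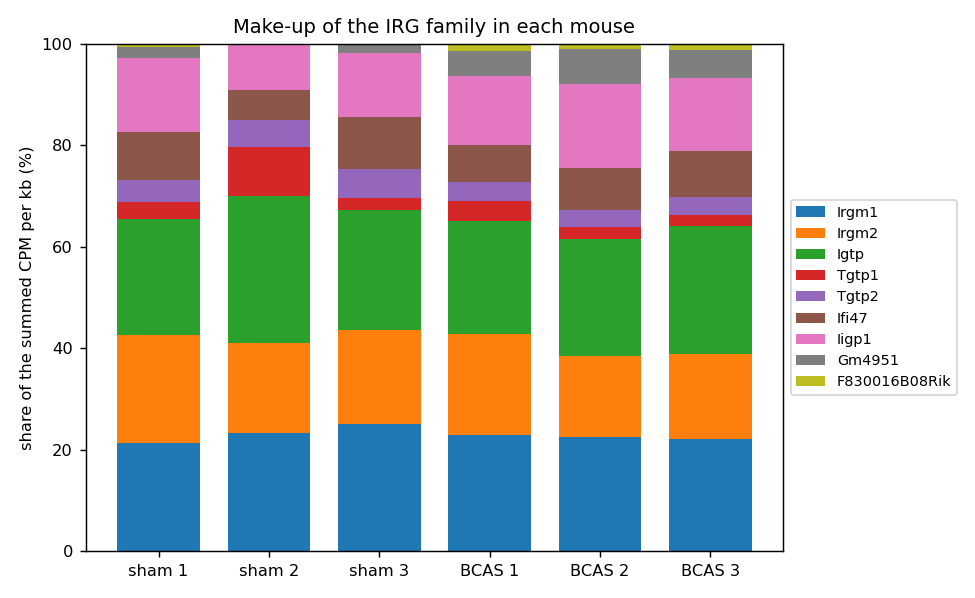
Share of each of the 9 genes in the summed CPM per kb of exon (y axis, percent) in each mouse (x axis). Igtp, Irgm1 and Irgm2 together make up 61.5% to 70.0% of every bar, and the share of Gm4951 is wider in the 3 BCAS mice.

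BCAS mouse 3 had the highest CPM of 8 members, and BCAS mouse 1 of Tgtp1. BCAS mouse 3 was also the highest in 83.2% of the up-regulated DEGs of the whole data set. In that mouse the summed microglia markers were also highest. These 10 markers, among them P2ry12, Cx3cr1 and Csf1r, were all up-regulated DEGs, with a median log2 fold change of 2.65, and summed to 320 to 335 CPM in sham and 1624 to 2622 CPM in BCAS mice, a 6.09-fold ratio. The IRG sum was 8.51% ± 0.455 (SD, n = 3) of the microglia sum in sham mice and 6.08% ± 0.276 in BCAS mice, without overlap. Astrocyte markers moved too, with 3 of 6 up-regulated and sums of 1440 to 1583 CPM against 5504 to 6005 CPM. These sums follow mainly Gfap, with means of 375 CPM in sham and 3674 CPM in BCAS mice (9.80-fold). Aqp4 rose 3.19-fold, and Aldh1l1, Slc1a3, Gja1 and S100b rose 1.57- to 2.01-fold. Such counts of up-regulated markers are to be read beside the 8.47% of all tested genes that were up-regulated DEGs. Of 6 endothelial markers, none was a DEG, and 4 passed an adjusted P of 0.05 upward (203.6 to 224 against 281 to 306 CPM). That threshold was passed upward by 18% of all tested genes. T and NK cell markers were low, with 6 of 7 tested genes up-regulated and sums of 0.708 to 1.64 against 8.89 to 9.93 CPM. Each of these called genes passed the filter through the BCAS group, as did Ly6c2 and Plac8 among the monocyte markers, so these counts are descriptions. Of 4 tested monocyte and neutrophil markers 3 were up-regulated (0.658 to 1.75 against 6.00 to 12.5 CPM), and Ly6g, which defines neutrophils, had 0 counts in every library. Of 6 neuron markers 5 were lower at an adjusted P of 0.05, as were 13.2% of all tested genes, and none of the 6 was a DEG. Which of these cells carry the IRG transcripts cannot be told from these data, and the part of each cell type in the rise of the family was not tested.

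Of 11 other IRG genes listed, 8 were in the count tables and 6 were tested. Up-regulated DEGs were 4 of the 6, beside 8.47% of all tested genes. Among the 4, Gm5431, Gm12185 and 9930111J21Rik1 passed the filter through the BCAS group, like Gm4951 and F830016B08Rik, so the count supports nothing about the family. Gm5431 (Irgb9b8) had 0.226 ± 0.162 CPM in sham and 5.63 ± 2.33 CPM in BCAS mice (SD, n = 3 each), which is 4.61 ± 0.49 (SE) as a log2 ratio with an adjusted P of 0.000209 by edgeR. The log2 fold change was 3.96 for Gm12185, 3.28 for 9930111J21Rik1 and 2.80 for 9930111J21Rik2 (Irgb5). With each mouse left out it ran from 4.24 to 5.36 for Gm5431 and from 2.69 to 4.13 for 9930111J21Rik1. Gm4841 (Ifgga3), which lies between Gm4951 and F830016B08Rik, had a log2 fold change of 2.23 that was not called (edgeR adjusted P = 0.0512), at 0.523 CPM in BCAS mice. Some alternatives, among them limma-voom, called it. Irgq, a distant relative on chromosome 7, passed an adjusted P of 0.05 downward (110.2 ± 4.25 against 90.6 ± 7.60 CPM, log2 fold change -0.28, edgeR adjusted P = 0.0273). Irgc1 and Gm12187 were at or near 0 counts and were not tested.

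The genes around the members were looked at as well. Within 250000 bases of a member the tables list 57 genes outside the IRG lists, of which 25 were tested, with a median log2 fold change of 0.014. A single one was a DEG, Gm12250, and RefSeq gives Irgb10, an effector IRG that was missing from the lists, as its synonym. The count was 3 with DESeq2 and with no filter beyond 1 count, 2 with library totals, and 2 or 3 in all runs with a mouse left out except that without BCAS mouse 3. It is to be read beside the 8.47% of all tested genes that were up-regulated, and at 25 genes it does not set the neighbours apart from them. Like the low members, Gm12250 passed the filter through the BCAS group. Gm12250 was counted 2, 5 and 2 times in sham and 54, 78 and 117 times in BCAS mice, which is 4.85 ± 0.51 (SE) as a log2 ratio with an adjusted P of 0.000204 by edgeR, and lies 10544 bases from Igtp. A further 5 neighbours passed an adjusted P of 0.05 below the fold threshold, namely Psme2b, a copy of a proteasome activator gene (log2 fold change 0.93), Rack1 (0.57), Smim3 (0.63), Mgat1 (0.24) and Synpo (-0.28). They are to be read beside the 18% of all tested genes that passed an adjusted P of 0.05 upward and the 13.2% downward. Zfp692, the nearest tested gene on the other side of the pair Igtp and Irgm2, had a log2 fold change of -0.0066 (edgeR adjusted P = 0.965). Gm16170 (0.54, edgeR adjusted P = 0.525) and Btnl9 (0.47, edgeR adjusted P = 0.783) flank the cluster of Irgm1. On chromosome 18, Smim3 next to Iigp1 had a log2 fold change of 0.63 (edgeR adjusted P = 0.0417), and Chsy3, the nearest tested gene on the other side, one of 0.19 (edgeR adjusted P = 0.420).

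**Figure D5:**
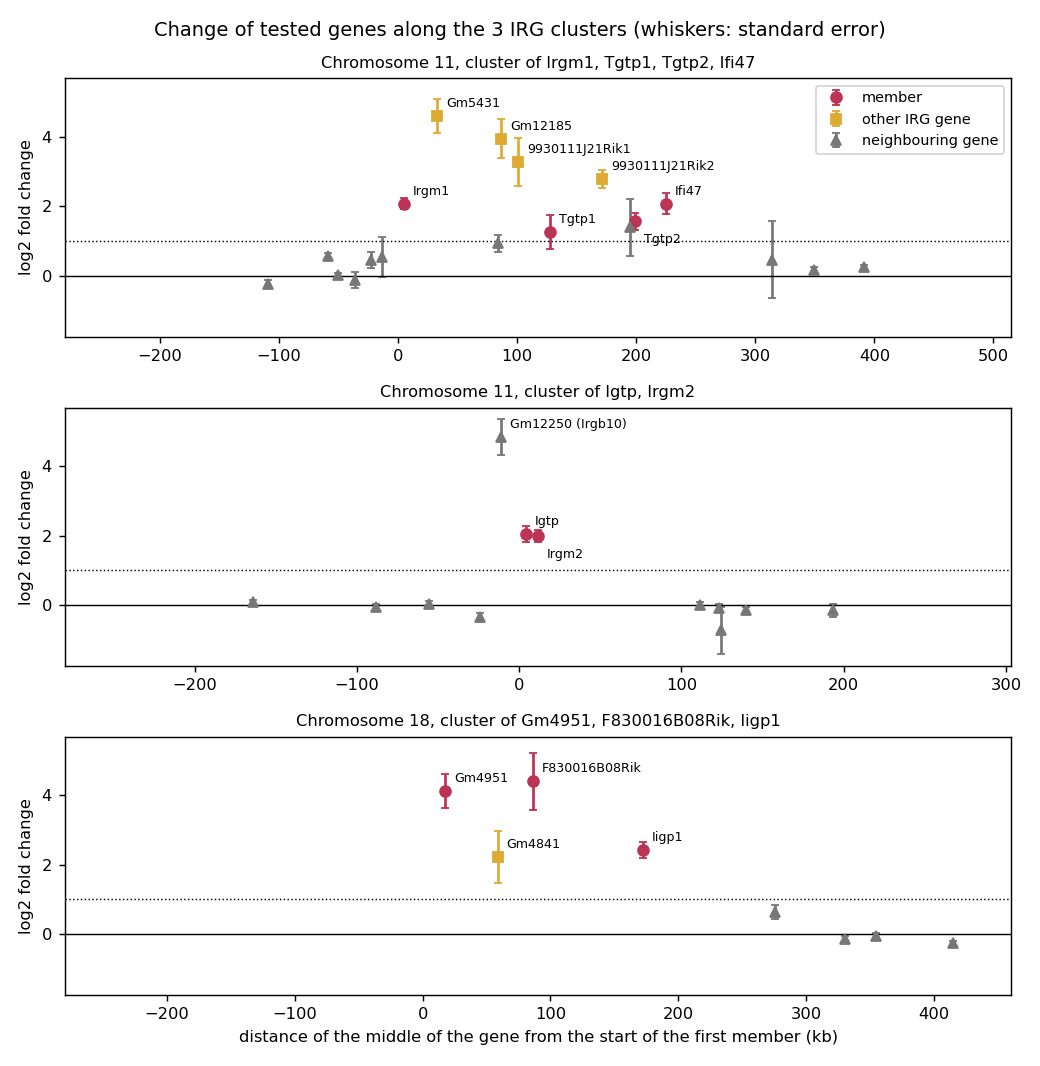
Log2 fold change (y axis) with its standard error for tested genes along the 3 IRG clusters, by distance of the middle of the gene from the start of the first member in kb (x axis). Members and other IRG genes stand above a log2 fold change of 1, while of the 25 neighbouring genes Gm12250, an IRG gene outside the 9, was the DEG of the main test, at 4.85, and alternatives call up to 3.

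The genes that act before and beside the IRG proteins rose in part, and their counts are to be read beside the 8.47% of all tested genes that were up-regulated DEGs and the 18% and 13.2% that passed an adjusted P of 0.05 upward and downward. The interferon genes themselves were near the limit of detection, with 2, 2 and 0 counts of Ifng and 0, 0 and 2 counts of Ifnb1 in BCAS mice 1 to 3 and none in sham mice. Ifnk had 2 counts in BCAS mouse 1, and Ifna2, Ifna4 and Ifne had none in any library, so that a difference was not detectable at this depth. Of 7 receptor and kinase genes 2 were up-regulated DEGs, Ifngr1, the ligand-binding chain of the interferon-gamma receptor, with a log2 fold change of 1.66 (14.5 ± 0.408 against 45.9 ± 10.05 CPM, SD, n = 3 each, edgeR adjusted P = 0.000107), and Ifnar2 with 1.21. Ifngr2, the partner chain of Ifngr1, had 72.8 ± 5.87 CPM in sham and 68.8 ± 1.26 CPM in BCAS mice (log2 fold change -0.081, edgeR adjusted P = 0.466). Tyk2 (0.59), Ifnar1 (0.41) and Jak2 (0.29) passed an adjusted P of 0.05 below the fold threshold, and Jak1 did not (-0.13, edgeR adjusted P = 0.182). Of 8 STAT and IRF genes 6 were up-regulated DEGs, led by Irf7 (4.31), Irf8 (4.01) and Irf9 (1.90). With glmTreat against a log2 fold change of 1, Irf1 and another of the 6 lost their calls. Of 10 tested guanylate-binding protein genes, relatives that act with the IRG effectors at vacuoles, 8 were up-regulated DEGs, led by Gbp10 (3.33), Gbp6 (3.10) and Gbp3 (2.66). Of these 8, Gbp10, Gbp6 and Gbp8 passed the filter through the BCAS group. The calls of Ifnar2 and Gbp8 were also lost with glmTreat, and that of Gbp8 in several runs with a mouse left out. Of the 12 autophagy conjugation genes, whose products help to load effectors onto vacuoles, none was a DEG, 2 passed an adjusted P of 0.05 upward and 3 downward, which at 12 genes does not set them apart from all genes, with Gabarapl1 (-0.51), Gabarap (0.33) and Atg7 (0.27) the furthest from 0.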

How the data were processed

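Raw counts per gene, as the authors deposited them, were used for 3 sham and 3 BCAS libraries. Groups and mouse numbers come from the labels. According to the methods, reads were trimmed and aligned to mm10 with HISAT2. Per the file headers, reads were counted on exons by featureCounts 2.0.3 with GENCODE M20, where the methods name version 1.6.3. Each mate added a count, without regard to strand, and reads on several genes or places were left out. Genes were kept by filterByExpr, normalized by TMM and tested by quasi-likelihood in edgeR, with no block (R 4.3.3, edgeR 4.0.16, limma 3.58.1, DESeq2 1.42.0), with Benjamini-Hochberg adjustment over all tested genes. Log2 CPM used a prior count of 2. Symbols of 29 of 54752 identifiers were not matched. The test was checked on simulated data. Mice were separate animals. Members and lists were chosen with earlier results of these data known.

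By rule, the text names all members, up to 3 genes past adjusted P 0.05 with the largest change of each other list, every gene of lists under 8 tested genes, DEGs among neighbours within 250000 bases, the nearest tested gene beside each cluster, and the 5 genes with the nearest profiles. Marker lists depart from it and are given by counts and sums. Psme2b, Rack1, Mgat1 and Synpo were named after their values were seen. Alternatives were DESeq2, limma-voom, RLE, library totals, 2 filters, glmTreat, halved counts, a replicate block, each mouse left out and, for the scores, the prior count, medians and a level minimum. The choroid covariate, the effector score by chromosome and the count of other IRG genes were added after seeing the data.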

Additional observations from a re-analysis of the deposited data

How the results depend on the processing

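The number of up-regulated members was 7 with glmTreat against a log2 fold change of 1, where Tgtp2 lost its call (adjusted P = 0.119, against 7.77e-06 to 0.119 over its alternatives), and 8 or 9 under the other alternatives. It was 9 with DESeq2 (Tgtp1 adjusted P = 0.0323), limma-voom (0.0331), no filter beyond 1 count (0.0147), the choroid covariate (0.0259) and without sham mouse 2. The other 7 members kept their calls under all 16 alternatives. Other IRG genes up-regulated numbered 3 to 5. The count was 5 with limma-voom, library totals, no filter beyond 1 count and the choroid covariate, with Gm4841 added. Under glmTreat 9930111J21Rik1 lost its call (adjusted P = 0.0537). The same test ended the calls of Ifnar2 (0.363), Irf1 (0.0834), Gbp8 (0.519), Neurod6 (0.0919), the markers Cd3e (0.0604) and S100b (log2 fold change 1.01, at the threshold) and 1 more STAT or IRF gene, which also fell under the fold threshold without sham mouse 3 or BCAS mouse 3. Gbp8 lost its call without sham mouse 1 or 2 or BCAS mouse 1 or 3. Up-regulated neighbouring genes numbered 3 with DESeq2 and with no filter (Gm5970 and BC023105 added), 2 with library totals (Psme2b added, log2 fold change 1.01) and 1 to 3 with each mouse left out (3 without BCAS mouse 2, 2 without BCAS mouse 1 or any sham mouse).

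The difference of the Irgm-type minus effector score was -0.86 with a prior count of 0.5, -0.31 with 5, -0.10 with medians and 0.15 with members of at least 1 CPM, a reversal that follows from removing 2 low genes. The chromosome 11 minus 18 score moved to -2.29 with medians and -0.58 with that minimum, and the effector score by chromosome to -2.52 and -0.75. With each mouse left out these scores ran from -0.73 to -0.40, -2.04 to -1.15 and -2.24 to -1.26.

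Equal replicate numbers mark no pairs (correlations of the deviations of same-numbered mice 0.036, -0.314 and -0.158), and not every mouse correlated best with its own number. With the replicate block 8 members were up-regulated, and all DEGs went from 1762 to 1595. Depth limits F830016B08Rik and Gm4951 in sham mice.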

Other observations

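The 5 tested genes outside the family whose centred log2 CPM over the 6 mice was nearest to the mean of the 9 members were Cyth4, Adap2, Siglech, Sp100 and Apobr, with root mean squared differences of 0.061, 0.084, 0.12, 0.12 and 0.13 on the log2 scale. Cyth4, an ARF exchange factor of blood and myeloid cells, had 18.5, 15.5 and 15.1 CPM in sham mice and 70.8, 76.0 and 106.7 CPM in BCAS mice. Siglech is a microglia marker, and Sp100 a component of nuclear bodies that is induced by interferon. The 6 values of each profile share the libraries and the difference between the groups, so the likeness is a description.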
